A study of Mus musculus with 8 samples.

Results

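The genes described here encode respiratory complexes II, III, IV and V of the mitochondrial inner membrane, together with factors that assemble them. They were chosen by symbol from the array platform's annotation (Sdha to Sdhd, and symbols that begin with Sdhaf, Uqcr, Uqcc, Cox4 to Cox8, Cox10 to Cox19 or Atp5). This gave 60 genes with 119 probe sets, out of 18193 named genes with 34945 probe sets. Of the 60 genes, 8 belong to complex II, 11 to complex III, 24 to complex IV and 17 to complex V. Where a gene had several probe sets, the brightest on average across all arrays stood for it, and no measured difference entered the choice. All 60 genes were tested, with no filter on low values.

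The study measured transcripts in spleen cells of 4 mice with acute myeloid leukaemia carrying the MLL-AF10 fusion gene. The spleen cells of each mouse were sorted on surface c-kit (CD117), the receptor for stem cell factor, into cells high in c-kit (CD117pos) and cells low in or without it (CD117neg), with 1 array for each. Both fractions of every mouse come from leukaemia started with c-kit+ marrow stem and progenitor cells that had been immortalised by a retrovirus and put into syngeneic recipients (strain written CD57BL/6) after sub-lethal irradiation. The mice are called by the endings of the array titles, _948, _951, _952 and _953, and the sources used here do not say whether each leukaemia began with its own transduction.

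Complex II passes electrons from succinate to ubiquinone, complex III passes them on to cytochrome c, and complex IV, cytochrome c oxidase, hands them to oxygen. Complexes III and IV pump protons, and complex V, the ATP synthase, uses the proton gradient to make ATP. All subunits of complex II are encoded in the nucleus, whereas complexes III, IV and V combine nuclear subunits with a few from mitochondrial DNA. Acute myeloid leukaemia cells are known to rely strongly on this pathway.

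In bulk fractions, fewer cells of a type and less RNA per cell cannot be told apart, and this holds for every difference below. Most of the 60 genes differed little between the fractions. Differences are CD117pos minus CD117neg on the scale of log2(intensity + 16), and a gene counts as higher or lower when its adjusted p in a paired limma fit over all genes is below 0.05. By that rule 6 members were higher in CD117pos: Sdhaf3, Uqcr11, Cox18, Atp5b, Atp5g1 and Atp5g2. The only member that was lower was Sdhb. Together the 7 are 11.7% of the members, against 22.2% of all tested genes in either direction. The 6 higher members are 10% of the 60, close to the 8.36% of all tested genes that were higher. The 1 lower member is 1.67%, against 13.8% of all tested genes. At an unadjusted p below 0.05, 13 members were higher and 1 lower (21.7% and 1.67%, against 14.3% and 20.4% of all genes).

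The split depended on how arrays were scaled. After quantile normalisation 16 members were higher and 0 lower, against 13.4% and 10.7% of all genes, and after centring on array medians 10 were higher and 0 lower, against 10.8% and 11.5%. The 6 members named above as higher were among the higher members under both scalings, while Sdhb kept its negative difference without passing. The share of members that were lower stayed between 0% and 4% under all 16 settings run, and that of all genes between 6.70% and 25.9%. Among the 54 members with a mean intensity of at least 50, 9 were higher (16.7%, against 17.3% of the 9954 genes at that level) and 1 was lower (1.85%, against 25.9%).

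**Figure D1:**
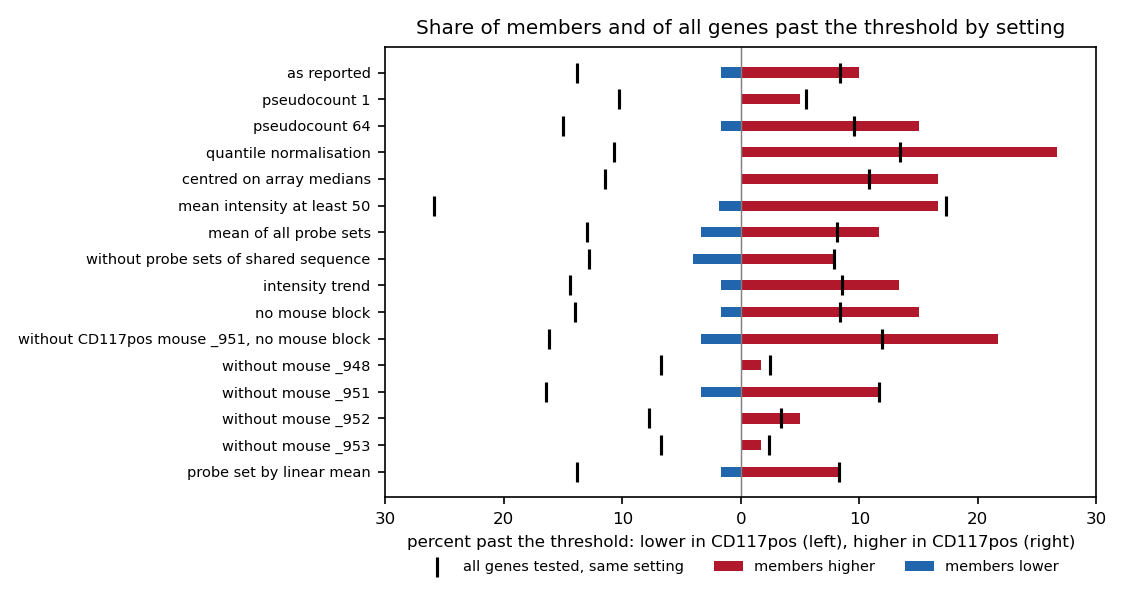
Percent of members (bars) and of all tested genes (black ticks) past the threshold under each setting, lower in CD117pos to the left and higher to the right. The share of lower members is below that of all genes in each of the 16 settings, while the share of higher members lies on either side of it.

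The direction of the small differences leaned upwards. The fitted difference was above 0 for 42 members and below 0 for 18, a share of 70.0% above 0 against 48.7% of all genes. The median over the members was 0.13, and that over all genes was -0.01. For 15 members (25.0%) all 4 CD117pos intensities lay above all 4 CD117neg intensities, which held for 10.4% of all genes. These were Sdha, Sdhc, Sdhaf3, Sdhaf4, Uqcr11, Cox5b, Cox6c, Cox18, Atp5b, Atp5e, Atp5g1, Atp5g2, Atp5j2, Atp5mpl and Atp5o. For Sdhb, Cox7a2l and Atp5c1, 3 members (5%), all 4 CD117pos intensities lay below, which held for 17.2% of all genes. The shares of all genes in this paragraph were not matched for intensity. A mean intensity of at least 50 was reached by 54 of the 60 members and by 9954 of the 18193 genes. The members' median difference was 0.00 in mouse _948, 0.19 in mouse _951 and 0.09 in each of mice _952 and _953. Without mouse _951 it was 0.04.

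**Figure D2:**
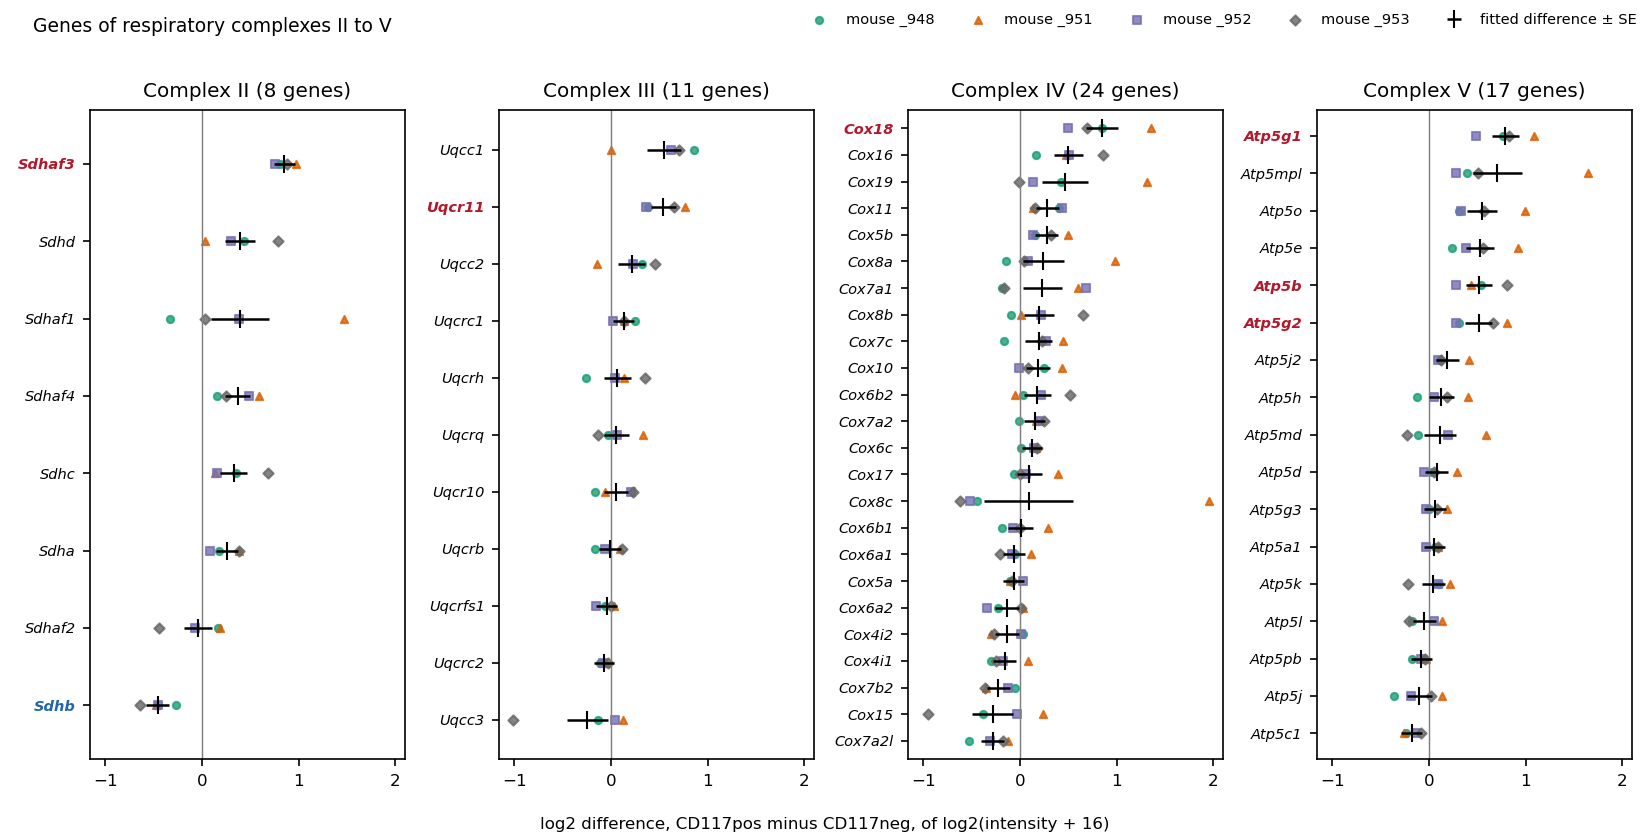
Log2 difference between CD117pos and CD117neg of each of the 60 members, by complex, with 1 point per mouse and a black bar for the fitted difference ± SE. Red names are the 6 higher members and the blue name is Sdhb, and the triangles of mouse _951 reach furthest right for Cox8c, Atp5mpl, Sdhaf1, Cox18 and Cox19.

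Upstream sequence of the members past the threshold, and of Atp5g3 as the third gene for the same ATP synthase subunit, is shown from RefSeq (GRCm38.p6), to set what lies before their start sites beside their values. An entry was matched for 47 members, with 51 promoters, and for none under the name Cox18. The 250 bases before the start were searched on both strands for motifs of factors known to act on respiratory genes: GCGCA, any base and GCGC for NRF1, CCGGAAG for GABPA (NRF2), TNAAGGTCA for oestrogen-related receptors and the E-box CACGTG bound by Myc and others. Capitals mark the matches, and no matches in the printed sequences overlapped. Each line runs 5′ to 3′ on the gene's strand and ends at the base before the start.
Sdhaf3 (chr6:6955768-6956017, plus strand): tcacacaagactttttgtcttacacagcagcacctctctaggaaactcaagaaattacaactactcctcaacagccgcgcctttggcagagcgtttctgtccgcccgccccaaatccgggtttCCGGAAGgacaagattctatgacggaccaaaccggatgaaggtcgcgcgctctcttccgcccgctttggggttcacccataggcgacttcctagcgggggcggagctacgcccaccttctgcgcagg
Sdhb (chr4:140961021-140961270, plus strand): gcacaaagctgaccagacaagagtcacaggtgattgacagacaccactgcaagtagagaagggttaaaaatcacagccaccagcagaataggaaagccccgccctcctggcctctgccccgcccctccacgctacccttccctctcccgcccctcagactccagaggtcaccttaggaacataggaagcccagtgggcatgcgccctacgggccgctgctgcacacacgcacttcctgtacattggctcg
Uqcr11 (chr10:80406822-80407071, minus strand): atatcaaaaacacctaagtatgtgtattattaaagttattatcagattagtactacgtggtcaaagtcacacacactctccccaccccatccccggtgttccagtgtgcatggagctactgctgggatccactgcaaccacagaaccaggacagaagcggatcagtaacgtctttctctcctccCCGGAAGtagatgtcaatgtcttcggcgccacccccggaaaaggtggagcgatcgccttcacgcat
Atp5b (chr10:128083057-128083306, plus strand): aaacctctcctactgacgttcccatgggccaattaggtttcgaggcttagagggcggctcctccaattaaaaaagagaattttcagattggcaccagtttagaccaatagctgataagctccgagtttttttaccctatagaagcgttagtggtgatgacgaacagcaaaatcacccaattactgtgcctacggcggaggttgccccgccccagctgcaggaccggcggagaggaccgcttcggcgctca
Atp5g1 (chr11:96075632-96075881, minus strand): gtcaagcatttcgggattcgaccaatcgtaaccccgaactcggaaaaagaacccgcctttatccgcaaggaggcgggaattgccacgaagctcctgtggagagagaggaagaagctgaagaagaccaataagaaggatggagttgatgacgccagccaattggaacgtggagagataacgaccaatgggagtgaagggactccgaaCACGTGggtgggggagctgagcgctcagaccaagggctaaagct
Atp5g2 (chr15:102671048-102671297, minus strand): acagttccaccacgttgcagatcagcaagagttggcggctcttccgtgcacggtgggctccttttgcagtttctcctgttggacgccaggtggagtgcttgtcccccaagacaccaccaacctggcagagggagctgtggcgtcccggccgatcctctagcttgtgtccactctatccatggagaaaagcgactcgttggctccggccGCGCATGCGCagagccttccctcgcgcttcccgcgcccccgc
Atp5g3 (chr2:73911327-73911576, minus strand): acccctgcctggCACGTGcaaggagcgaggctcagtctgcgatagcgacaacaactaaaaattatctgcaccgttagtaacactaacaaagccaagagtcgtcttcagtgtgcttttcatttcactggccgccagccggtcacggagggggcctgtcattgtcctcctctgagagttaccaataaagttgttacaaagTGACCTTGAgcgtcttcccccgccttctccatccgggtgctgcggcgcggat

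The E-box of Atp5g1 lies 44 to 39 bases before the start, and the NRF1 match of Atp5g2 lies 42 to 33 bases before it. Atp5g3 holds an E-box 238 to 233 bases and an oestrogen-related receptor match 52 to 44 bases before its start. The GABPA matches of Sdhaf3 and Uqcr11 lie 127 to 121 and 66 to 60 bases before theirs, and the Atp5b and Sdhb windows hold none of the 4 motifs. Over the 51 promoters of members, 8 (15.7%) held the NRF1 motif, against 3.74% of all 32851 promoters and 6.04% of those of tested genes. The GABPA motif was in 14 (27.5%), against 6.91% and 10.1%. The E-box was in 5 (9.80%), against 6.02% and 7.39%, and the oestrogen-related receptor motif in 1 (1.96%), against 1.14% and 0.938%. The median difference was 0.17 for the 8 members with an NRF1 match and 0.18 for the 39 without. It was 0.13 for the 13 members with a GABPA match and 0.18 for the 34 without. For the 5 with an E-box it was -0.05, and 0.19 for the 42 without. For the 1 with an oestrogen-related receptor match it was 0.06, and 0.18 for the 46 without. Any part of the motifs in the members' differences was not tested.

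Complex II, succinate dehydrogenase, held a higher assembly factor and a lower subunit. Sdhaf3 encodes an assembly factor that helps to mature the iron-sulphur subunit (Entrez gene 71238). Its intensity in mice _948, _951, _952 and _953 was 156, 157, 178 and 159 in CD117neg and 284, 322, 311 and 305 in CD117pos. The fractions did not overlap, and each mouse had a similar step. The difference was 0.85 ± 0.11 (SE; 1.80-fold, 95% interval 0.58 to 1.12 on the log2 scale, adjusted p = 0.00545). Of the 7 members past the threshold, it was the only one that passed without each mouse in turn. It did not pass with the mean of its 2 probe sets (0.40, adjusted p = 0.179), the other of which measured 9.53 and 8.44 on average.

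Sdhb encodes the iron-sulphur subunit itself (Entrez gene 67680). It measured 1944, 1847, 2037 and 2074 in the CD117neg arrays of the 4 mice and 1609, 1330, 1482 and 1329 in the CD117pos arrays. All CD117pos values were the lower ones. The difference was -0.46 ± 0.12 (1.37-fold lower, adjusted p = 0.0419). It did not pass without mouse _948 (adjusted p = 0.101), _952 (0.144) or _953 (0.154), with a pseudocount of 1 (0.0954), after quantile normalisation (-0.24, 0.195) or after centring (0.0874).

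The other subunits of complex II pointed the opposite way without passing. Sdha, the flavoprotein that oxidises succinate, measured 2488 ± 152 (SD, n = 4) in CD117neg and 2986 ± 265 in CD117pos, a difference of 0.26. The membrane anchors Sdhc and Sdhd differed by 0.33 and 0.39, with adjusted p of 0.156 and 0.134. Their other probe sets differed less, for Sdhc by 0.0757, higher in 2 of 4 mice, and for Sdhd by 0.17, higher in 4 of 4. Within each mouse, Sdhb moved down relative to Sdha, by between -1.02 and -0.45 (mean -0.72 ± 0.27 SD), so the transcripts of these partners changed unequally in all 4 mice. Relative to Sdhd, Sdhb moved by between -1.43 and -0.50. No test was run on these within-array differences.

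Among the assembly factors, Sdhaf4, which works on the flavoprotein, differed by 0.37 (adjusted p = 0.0974). Sdhaf2, which attaches FAD to Sdha, had the smallest difference of complex II. It measured 226, 233, 284 and 260 in CD117neg and 255, 268, 269 and 187 in CD117pos, a difference of -0.04 with an interval of -0.41 to 0.33. Mouse _953 alone had a clearly lower CD117pos value. Sdhaf1, which like Sdhaf3 serves the iron-sulphur subunit, differed by 0.39 ± 0.30, and most of that came from mouse _951, described below. Another probe set of Sdhaf2 differed by -0.38, lower in 4 of 4 mice.

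In complex III, the cytochrome bc1 complex, Uqcr11 was the only member past the threshold. It encodes one of the small subunits (Entrez gene 66594). It measured 668, 559, 562 and 587 in CD117neg and 877, 962, 728 and 935 in CD117pos. The fractions did not overlap. The difference was 0.54 ± 0.13 (1.46-fold, adjusted p = 0.0315). The call ended without mouse _948 (adjusted p = 0.0951), _952 (0.0868) or _953 (0.127) and with a pseudocount of 1 (0.0738), with differences of 0.51 to 0.60 there.

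The core proteins and the Rieske protein of complex III sat close to 0. Cyc1, cytochrome c1, which the symbol rule leaves out, differed by 0.23 (adjusted p = 0.228). The core proteins Uqcrc1 and Uqcrc2 differed by 0.13 and -0.07, the Rieske iron-sulphur protein Uqcrfs1 by -0.04, and the hinge protein Uqcrh by 0.07. Uqcrq and Uqcr10, other small subunits, differed by 0.06 and 0.05. Another probe set of Uqcrh differed by 0.34, higher in 3 of 4 mice, and another of Uqcrb by 0.20. Uqcrc2 and Uqcrfs1 turned positive after quantile normalisation and after centring. Uqcrb, a subunit near the ubiquinone site, had the smallest difference of the complex. Its intensities were 9452, 8609, 9738 and 9352 in CD117neg and 8438, 9171, 9322 and 10152 in CD117pos. The fractions overlapped fully, and the interval of the difference was -0.29 to 0.28. On all 8 arrays this probe set lay at or above the 99.9th percentile, near the top of the measured range.

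Uqcc1 and Uqcc2 encode factors for the newly made cytochrome b. Uqcc1 had the largest difference of complex III, 0.55 ± 0.17, without passing (adjusted p = 0.0749). It measured 167, 178, 186 and 184 in CD117neg and 318, 178, 295 and 311 in CD117pos. In mouse _951 the fractions were level, while the other 3 mice had clearly higher CD117pos values. Without mouse _951 the difference was 0.73 and passed (adjusted p = 0.00857). Another probe set of Uqcc1 went from a mean of 76.5 to 167, higher in 4 of 4 mice. Uqcc2 differed by 0.22, and Uqcc3, a further assembly factor, by -0.24.

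Of the 24 members of complex IV, Cox18 alone passed. Cox18 encodes an inner-membrane factor that inserts part of the mitochondrially encoded subunit 2 (Entrez gene 231430). It measured 404, 370, 512 and 508 in CD117neg and 741, 971, 730 and 830 in CD117pos. The fractions did not overlap. The difference was 0.85 ± 0.17 (1.80-fold, adjusted p = 0.0194), and 0.68 as the mean of mice _948, _952 and _953. It no longer passed when mouse _948 (0.85, adjusted p = 0.0898) or mouse _953 (0.90, adjusted p = 0.0742) was left out.

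The other assembly factors of complex IV spread from -0.28 to 0.50. Cox16, which joins the copper step of subunit 2, differed by 0.50 ± 0.15 (adjusted p = 0.0611). The haem enzymes Cox10 and Cox15 differed by 0.19 and -0.28, and the 3 other probe sets of Cox15 by 0.0056 to 0.0442. Of the copper factors, Cox11 differed by 0.28 and Cox17 by 0.10, and Cox19 by 0.47 ± 0.24 with most of it in mouse _951.

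The 10 widely expressed subunits of complex IV had a median difference of 0.07, and none passed. Cox6b1 had the smallest difference. It measured 5767, 5654, 5812 and 5897 in CD117neg and 5072, 6928, 5539 and 5893 in CD117pos, a difference of 0.01 with an interval of -0.31 to 0.32. The CD117neg values lay close together and the CD117pos values on both sides of them. Cox4i1, the general form of the regulatory subunit 4, differed by -0.16, Cox5a by -0.06 (0.14 in another probe set, higher in 4 of 4 mice) and Cox5b by 0.28. Cox6a1 differed by -0.06, Cox6c by 0.13, Cox7a2 by 0.15, Cox7c by 0.19 and Cox8a by 0.24. Cox7a2l, which takes the place of a subunit 7a where complexes III and IV join in a supercomplex, was the member of this group furthest below 0. It measured 5337, 4674, 5036 and 4796 in CD117neg and 3704, 4296, 4056 and 4261 in CD117pos. The fractions did not overlap, but the difference of -0.28 ± 0.12 did not pass (adjusted p = 0.17).

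Subunits 4, 6a, 7a and 8 of complex IV exist as paralogues, of which the widely expressed forms were measured as follows. Cox4i1 measured 4261, 3673, 3896 and 3841 in CD117neg and 3464, 3900, 3448 and 3230 in CD117pos, lower in all mice but _951. Cox6a1 measured 4066, 4274, 3864 and 4348 in CD117neg and 3916, 4620, 3644 and 3781 in CD117pos, again lower in all mice but _951. The fractions of both genes overlapped. Cox7a2 measured 3781, 3947, 3941 and 3677 in CD117neg and 3754, 4432, 4521 and 4388 in CD117pos, level in mouse _948 and higher in the other 3. Cox8a measured 303, 294, 255 and 229 in CD117neg and 273, 597, 271 and 236 in CD117pos. Only mouse _951 had a Cox8a value in CD117pos outside the range of the CD117neg arrays.

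Tissue-restricted isoforms of complex IV subunits were mostly below or near the array median. The lung form Cox4i2, the muscle form Cox6a2 and the testis forms Cox6b2 and Cox7b2 lay below the array median on all 8 arrays, with means between 7.90 and 19.3. Cox8b, a muscle form, lay below it on 7 arrays (means 22.3 and 27.8) and Cox7a1, another muscle form, on 2 (29.5 and 36.1). Cox4i2 measured 20.1, 16.5, 15.9 and 24.9 in CD117neg and 20.8, 10.4, 16.1 and 17.8 in CD117pos. Cox6a2 measured 14.3, 5.26, 10.4 and 10.9 in CD117neg and 9.79, 5.80, 4.84 and 11.2 in CD117pos. Both sets of values overlapped between the fractions. Cox6b2 measured 7.72, 15.2, 14.1 and 5.53 in CD117neg and 8.22, 14.1, 18.9 and 14.9 in CD117pos. Cox7a1 measured 37.4, 26.7, 12.5 and 41.5 in CD117neg and 30.9, 48.6, 29.9 and 35.2 in CD117pos. Cox8b measured 26.4, 25.4, 21.8 and 15.5 in CD117neg and 23.9, 25.9, 27.9 and 33.5 in CD117pos. These 3 overlapped between the fractions as well. Differences of these 6 genes, from -0.22 to 0.23, were measured at that low level, and none passed. The testis form Cox8c was the exception in level, with values of 174, 178, 133 and 162 in CD117neg and 124, 733, 88.3 and 99.8 in CD117pos. In 3 mice CD117pos was lower, and in mouse _951 it was far higher. The difference was 0.09 ± 0.46 over all mice and -0.53 (adjusted p = 0.0203) without mouse _951. A second probe set of Cox8c measured 45.8 and 35.9 on average.

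Complex V held 3 of the 6 higher members, 17.6% of its 17 members, against 8.36% of all genes. Among genes with a mean intensity of at least 50, fitted alone, 17.3% were higher, and there Atp5e and Atp5o passed as well. Atp5b encodes the catalytic beta subunit of the F1 head, which makes ATP (Entrez gene 11947). It measured 3004, 3108, 3455 and 2802 in CD117neg and 4385, 4220, 4201 and 4924 in CD117pos. Each CD117pos value exceeded every CD117neg value. The difference was 0.52 ± 0.13 (1.43-fold, adjusted p = 0.0409). The call ended without mouse _948 (adjusted p = 0.151), _952 (0.0874) or _953 (0.144) and with a pseudocount of 1 (0.0898), while the difference stayed between 0.42 and 0.60 there.

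The partners of the beta subunit in the F1 part did not pass, and their differences depended on the probe set. Atp5a1, the alpha subunit that alternates with beta in the head, measured 5048 ± 163 and 5247 ± 200, a difference of 0.06 with an interval of -0.21 to 0.32. Another bright probe set of Atp5a1, without shared sequence, went from a mean of 3197 to 4164, a difference of 0.37, higher in 4 of 4 mice. Atp5c1, the gamma subunit of the central stalk, differed by -0.18 (adjusted p = 0.311). Its other probe set went from a mean of 319 to 203, a difference of -0.62, and the gene passed as lower where that probe set was used alone or averaged in. Atp5d, the delta subunit, differed by 0.08, and by 0.49 in its other probe set, which went from a mean of 742 to 1119 and was higher in 4 of 4 mice. Atp5e, the epsilon subunit, differed by 0.53 ± 0.15 (adjusted p = 0.0553) and passed in 8 of the 14 alternatives that measured it. Within each mouse, Atp5b moved up relative to the brightest Atp5a1 probe set by between 0.31 and 0.72 (mean 0.46), but relative to the other bright one only by between 0.0751 and 0.18 (mean 0.14). Relative to Atp5c1 it moved up by between 0.42 and 0.89, and by between 0.91 and 1.39 with the other Atp5c1 probe set. These changes were not tested.

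Atp5g1, Atp5g2 and Atp5g3 encode the same mature c subunit, which forms the rotating ring in the membrane, behind different import sequences. Atp5g1 measured 376, 272, 318 and 330 in CD117neg and 650, 594, 451 and 600 in CD117pos (Entrez gene 11951). Its fractions did not overlap, and the difference was 0.79 ± 0.14 (1.73-fold, adjusted p = 0.0126). Atp5g2 measured 1357, 1182, 1284 and 1251 in CD117neg and 1689, 2082, 1567 and 1983 in CD117pos (Entrez gene 67942). Here too the fractions stayed apart, and the difference was 0.52 ± 0.14 (1.43-fold, adjusted p = 0.0498).

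Atp5g3 measured 4799, 4751, 4822 and 4887 in CD117neg and 4815, 5416, 4734 and 5192 in CD117pos (Entrez gene 228033). Its fractions overlapped, and the difference was 0.06 with an interval of -0.21 to 0.33. In every mouse the order was Atp5g1, Atp5g2, Atp5g3, from the largest difference to the smallest. Atp5g1 rose relative to Atp5g3 by between 0.51 and 0.89 and Atp5g2 relative to Atp5g3 by between 0.31 and 0.62. This unequal change was not tested. The Atp5g3 probe set lay above the 99.0th percentile of its arrays, whose highest values were 10970 to 12460. The E-box and the NRF1 match printed above lie before the starts of Atp5g1 and Atp5g2, and Atp5g3 holds an E-box and an oestrogen-related receptor match. Any part of these matches in the differences was not tested.

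The Atp5g1 call ended when mouse _948 (0.80, adjusted p = 0.0679) or mouse _953 (0.78, adjusted p = 0.0671) was left out, and without probe sets of shared sequence, where a dim probe set stood in (0.47, adjusted p = 0.134). The Atp5g2 call rests on the threshold itself. It ended without each mouse in turn (adjusted p = 0.116 for _948, 0.065 for _951, 0.104 for _952 and 0.176 for _953), with a pseudocount of 1 (0.1), with the mean of its 3 probe sets (0.29, adjusted p = 0.0968), without probe sets of shared sequence (0.054) and with the probe set chosen by its linear mean (0.0507).

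**Figure D3:**
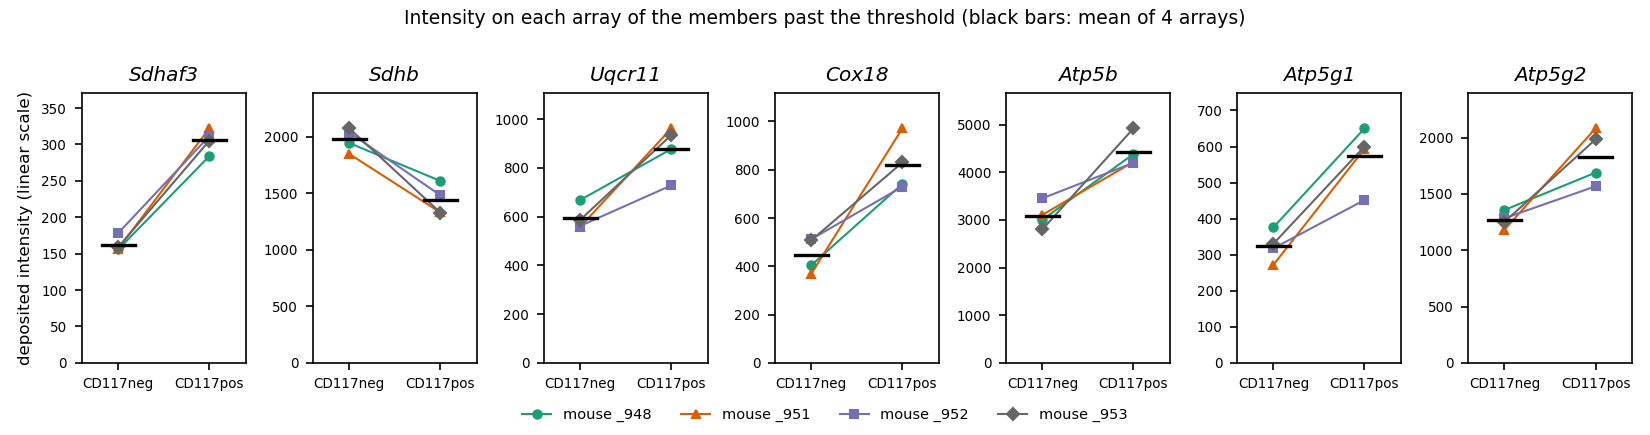
Deposited intensity of the 7 members past the threshold, with 1 line per mouse from its CD117neg to its CD117pos array and black bars for the means of 4 arrays. In each panel the 4 CD117pos points lie on 1 side of the 4 CD117neg points, above them for 6 genes and below them for Sdhb.

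**Figure D4:**
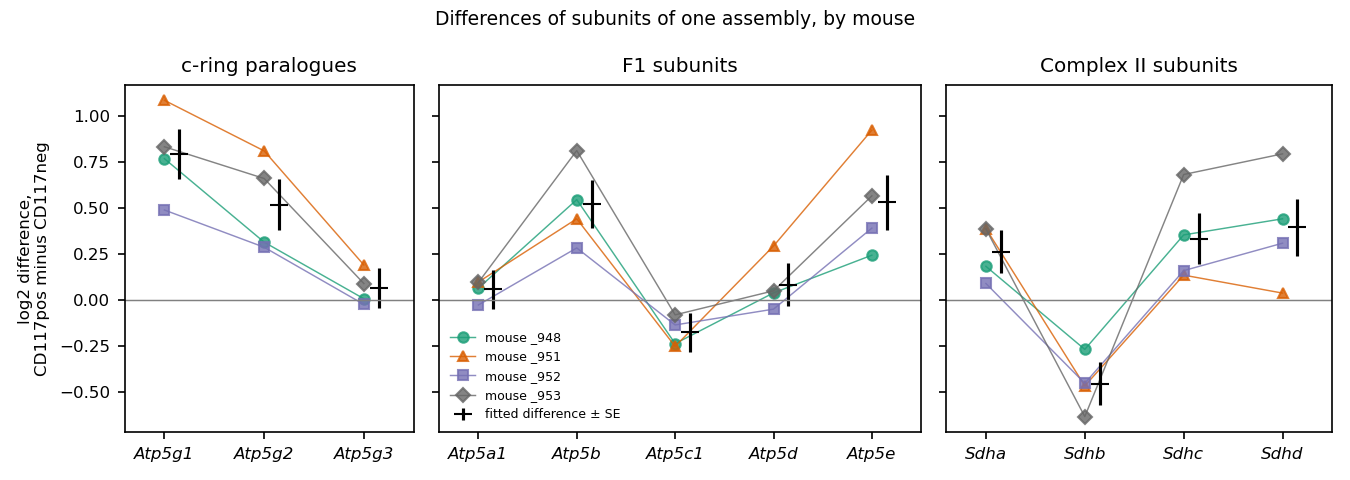
Log2 difference between CD117pos and CD117neg, by mouse, of the 3 c-ring genes, the 5 F1 subunits and the 4 subunits of complex II, with the fitted difference ± SE in black. Atp5g1 lies above Atp5g2 and Atp5g2 above Atp5g3 in each mouse, Atp5b lies above Atp5a1 and Atp5c1 as measured by their brightest probe sets, and Sdhb is the lowest of the 4 subunits of complex II in each mouse.

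The remaining members of complex V belong to its membrane part and side stalk. Atp5o, the subunit that ties the stalk to the head, went from 1110 ± 37.4 to 1653 ± 333 (0.55 ± 0.15, adjusted p = 0.056). Atp5mpl, a small proteolipid of the membrane part, measured 950, 737, 868 and 835 in CD117neg and 1254, 2336, 1060 and 1194 in CD117pos. Its fractions did not overlap, but the difference of 0.71 ± 0.25 did not pass (adjusted p = 0.105), and neither did that of 0.40 without mouse _951 (adjusted p = 0.0525). The side-stalk subunits Atp5h, Atp5j and Atp5pb differed by 0.13, -0.10 and -0.08. Other probe sets differed for Atp5h by 0.39 and for Atp5pb by 0.51 (means 906 and 1294), each higher in 4 of 4 mice, so the direction of Atp5pb turned with the probe set. After quantile normalisation Atp5j and Atp5pb turned positive as well. The membrane subunits Atp5j2, Atp5l and Atp5md differed by 0.19, -0.05 and 0.11. Atp5k, the membrane subunit e, had the smallest difference of the complex, 0.05, with values of 1936, 2196, 1916 and 2110 in CD117neg and 2075, 2558, 2042 and 1808 in CD117pos. Its values overlapped between the fractions.

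By role, the 14 assembly factors had a median difference of 0.33, with 2 higher (14.3%) and 0 lower. The 39 widely expressed subunits had a median of 0.08, with 4 higher (10.3%) and 1 lower (2.56%), and the 7 tissue isoforms 0.09 with 0 past the threshold. The median of complex II was 0.35, that of complex III 0.06, that of complex IV 0.14 and that of complex V 0.11. Higher members made up 12.5%, 9.09%, 4.17% and 17.6% of complexes II, III, IV and V, and lower members 12.5%, 0%, 0% and 0%. Over all genes 8.36% were higher and 13.8% lower, and no test was run between these groups.

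The CD117pos array of mouse _951 stood apart. Over all tested genes it correlated with the other CD117pos arrays at 0.929 or more, against 0.987 to 0.989 among those 3. Its value was the highest of the 4 CD117pos arrays for 33 members (55.0%, against 31.1% of all genes) and the lowest for 7 (11.7%, against 39.0%). Of complex V, 13 of 17 members were highest there. Sdhaf1 measured 735 on this array and 344 to 381 on the other CD117pos arrays, and Cox8a 597 against 236 to 273. Cox19 measured 1812, against 780, 687 and 593 in mice _948, _952 and _953. Without mouse _951 the differences of Sdhaf1, Cox8a and Cox19 were 0.03, -0.01 and 0.18.

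Other measures of that array differed too. The ratio of the 3′ to the 5′ control probe set of Gapdh, a measure of RNA or cDNA shortening, was 5.44 there, 2.56 to 2.77 on the other CD117pos arrays and 2.76 to 3.23 on the CD117neg arrays. The summed intensity of 7 listed T cell genes was 1307 there and 103 to 174 on the other CD117pos arrays, while Cd3d, Cd3e, Cd3g, Cd4 and Cd5 lay below the array median on all 8 arrays. The sum of 8 late neutrophil genes was 13610, against 24510 to 31140. The part of these measures in the members' values was not tested. With that array left out of a fit without the mouse block, 13 members were higher (21.7%, against 11.9% of all genes) and 2 lower (3.33%, against 16.2%). The 6 higher members named above were among the 13.

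**Figure D5:**
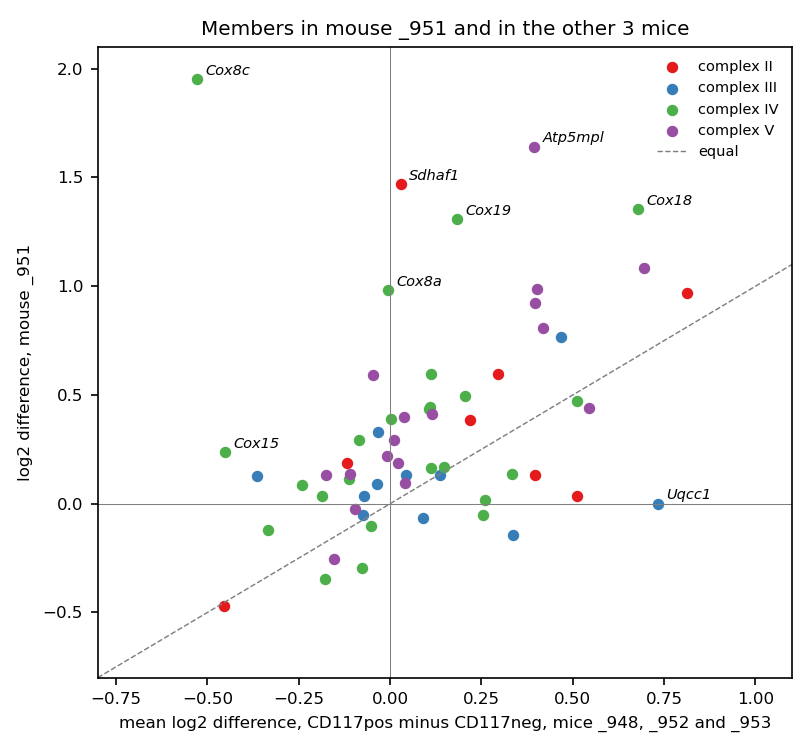
Log2 difference of each member in mouse _951 (vertical) against the mean of the other 3 mice (horizontal), coloured by complex, with the dashed line marking equal values. Cox8c, Sdhaf1, Cox19, Cox8a, Atp5mpl and Cox18 lie well above the line and Uqcc1 well below it.

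Members varied little between mice of a fraction. Their median SD on the log2 scale was 0.0936 over the 4 CD117neg arrays and 0.168 over the 4 CD117pos arrays, or 0.116 over CD117pos without mouse _951. Over all genes these values were 0.195, 0.255 and 0.176. For the 7 tissue isoforms, most of them dim, they were 0.195, 0.202 and 0.155. The spread was not compared with that of genes of matched intensity. By limma's moderated F-test of the mouse terms, 0 members and 0% of all genes differed between mice (adjusted p below 0.05). At an unadjusted p below 0.05 there were 1 of the 60 members, Cox16 (named after its value was seen), and 1403 of the 18193 genes.

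Other genes of the pathway were taken from lists by function. Of 30 further genes of complexes III to V, 11 were higher (36.7%, against 8.36% of all genes) and 0 lower (against 13.8%), with a median difference of 0.33. The most changed were Dmac2l, a factor linked to the ATP synthase (118 ± 11.5 to 255 ± 49.6, difference 0.998), Atpif1, the inhibitor of its reverse reaction (1394 ± 70.0 to 2791 ± 434, 0.98), and Coa7, a complex IV assembly factor (0.74). The others were Bcs1l, Coa6, Coa8, Fmc1, Lrpprc, Sco1, Sco2 and Tmem70, most of which assemble complexes III, IV or V. The Atpif1 call ended without probe sets of shared sequence (0.06, adjusted p = 0.796) or averaged over its probe sets (0.34, adjusted p = 0.104). Coa7 did not pass without mouse _948 (adjusted p = 0.0622), without _953 (0.0564) or without the block (0.0525). The share of 11 of 30 was not tested against that of the 60 members. Among genes with a mean intensity of at least 50, fitted alone, 17.3% were higher and 25.9% lower. The count of these 30 genes in that fit is not given.

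Of 33 complex I subunits, 5 were higher (15.2%, against 8.36% of all genes) and 0 lower (against 13.8%), with a median of 0.11. Among genes with a mean intensity of at least 50, fitted alone, 17.3% were higher and 25.9% lower. The count of this list in that fit is not given. Ndufa5 differed by 0.97, Ndufb2 by 0.71 and Ndufab1 by 0.65. Without probe sets of shared sequence Ndufb2 differed by -0.46 (adjusted p = 0.0421) and Ndufab1 by -0.08. With a pseudocount of 1 Ndufab1 did not pass (0.0504). Averaged over probe sets, Ndufb2 (0.29, adjusted p = 0.0875) and Ndufab1 (0.20, adjusted p = 0.271) did not pass. Without mouse _953 all 3 calls ended, with adjusted p of 0.0619, 0.0595 and 0.0854. Without mouse _952 they ended too (0.0780, 0.0612 and 0.0739), and without mouse _948 those of Ndufa5 (0.0843) and Ndufab1 (0.0891) ended.

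Of 15 enzymes of the citric acid cycle, which feeds complexes I and II, 3 were higher (20%) and 1 lower (6.67%). Over all genes these shares were 8.36% and 13.8%, and over genes with a mean intensity of at least 50, fitted alone, 17.3% and 25.9%. Idh3a, the catalytic subunit of isocitrate dehydrogenase, went from 672 ± 111 to 1459 ± 63.9 (1.12 ± 0.13, adjusted p = 0.00378). Suclg2, of succinyl-CoA ligase, differed by 0.97, a call lost without mouse _948 (adjusted p = 0.0842), without _953 (0.112) or with a pseudocount of 1 (0.0545). Dlst, of the oxoglutarate dehydrogenase complex, differed by -0.70, a call lost without mouse _948 (adjusted p = 0.0777), _952 (0.113) or _953 (0.111), with a pseudocount of 1 (0.0727) and after quantile normalisation (0.0768) or centring (0.0597).

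Of 16 regulators of mitochondrial biogenesis, 3 were higher (18.8%) and 2 lower (12.5%), against the same 8.36% and 13.8% of all genes. Myc, a transcription factor that binds E-boxes, went from 203 ± 32.7 to 494 ± 41.7 (1.23 ± 0.15, adjusted p = 0.00475). Tfb1m, a methyltransferase of mitochondrial ribosomal RNA, went from 277 ± 25.9 to 581 ± 72.1 (1.02 ± 0.11, adjusted p = 0.00316). Esrra, an oestrogen-related receptor that activates respiratory genes, went from 190 ± 15.2 to 58.6 ± 7.37 (-1.47 ± 0.13, adjusted p = 0.00198). These 3 passed under every alternative that measured them, 15 for Tfb1m and Esrra and 14 for Myc.

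As a check of the sort, Kit went from 28.6 ± 9.73 to 751 ± 127. The list of 9 myeloid leukaemia cell genes that holds Kit was split, with 3 higher and 4 lower. Elane, for example, differed by 2.47 and Itgam by -2.39. The summed intensity of the 9 was 21740 to 24280 in CD117neg and 24140 to 29450 in CD117pos. Markers of mature myeloid cells moved with the fractions. The summed intensity of 7 monocyte and macrophage genes, of which 4 were lower and 1 higher, was 15880 to 18190 in CD117neg and 3257 to 6399 in CD117pos. For 8 late neutrophil genes, of which 7 were lower, it was 56410 to 62620 and 13610 to 31140. The part of this shift in the members' differences was not tested. Erythroid genes were near the floor: 7 measured markers summed to 83.4 to 101 in CD117neg and 64.9 to 189 in CD117pos, and Hba-a1, Klf1, Epb42, Rhag and Slc4a1 lay below the array median on all 8 arrays. Sums for the natural killer and the megakaryocyte lists stayed at or below 126, and that of 6 B cell genes was 474 to 730 and 141 to 299, with Cd22 lower and Pax5 and Blk below the median throughout. The 7 stroma and endothelium genes summed to 203 to 243 and 129 to 672, the highest again in mouse _951, with Pecam1 lower and Cdh5, Col1a1, Col3a1 and Cxcl13 below the median throughout.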

How the data were processed

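The deposited table gives, per the file headers, 1 value for each of 45101 probe sets on each of 8 Affymetrix arrays. The values are an intensity on a linear scale, as the authors deposited it. Per the labels' protocols, polyA RNA went through 2 cycles of amplification before biotin labelling. How probes were summarised and arrays scaled is not given in the sources used. Arrays have no read depth, so their number limits the precision.

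The 64 control probe sets were left out. Probe sets were named by the platform annotation (34945 with 1 symbol, 932 with several, 9160 with none). Entrez identifiers of 34741 matched the RefSeq gene table, which changed 0 symbols. Each of 18193 genes was represented by the probe set with the highest mean log2(intensity + 16). Names ending _s_at, _x_at, _a_at or _g_at count as shared sequence. They mark 27 of the 60 representative probe sets.

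The difference between fractions was tested two-sided by lmFit and eBayes (limma 3.58.1 under R 4.3.3, mouse as a block, Benjamini-Hochberg over all genes, threshold 0.05). The block follows from the design, by which each mouse gave both fractions. Deviations from the fraction means correlated at 0.12 to 0.27 within a mouse. The fit was also run on simulated data with planted changes larger than any member's difference, so that run does not cover differences of the members' size. Figures used Python 3.11.15 with matplotlib 3.10.9.

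Genes given by name are the members past the threshold, the largest and smallest difference of each complex and paralogue groups. Up to 3 changed genes of each further pathway or regulator list are named too. Cell type lists are given mainly as counts and sums. Other genes with array values were chosen after their values were seen. Members and lists were chosen with earlier results of these data known. Alternatives covered the pseudocount (1 or 64), quantile normalisation, centring, a minimum mean of 50, the mean of all probe sets, no shared sequence, an intensity trend, no block, no CD117pos array of mouse _951, and each mouse left out. Choosing probe sets by linear mean was added after seeing the data.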

Additional observations from a re-analysis of the deposited data

Results flagged for a closer look

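In 10 of 120 groups of 4 arrays (60 members in each fraction), 1 array lay far from the other 3 on the log2 scale, by a gap past Dixon's 95% critical value. By chance this is passed in about 1 in 20 such groups. Of the 10, 9 were in CD117pos, and 6 of those were the array of mouse _951. There, Sdhaf1 measured 735 (others 344 to 381), Cox8a 597 (236 to 273), Cox8c 733 (88.3 to 124) and Atp5j2 3275 (2621 to 2714), all high. On the same array Uqcc1 measured 178 (295 to 318) and Cox5a 3062 (3580 to 3685), both low. In the CD117pos array of mouse _953, Sdhc measured 676 (528 to 531) and Sdhaf2 187 (255 to 269). Cox7a2 measured 3754 in the CD117pos array of mouse _948 (4388 to 4521), and Sdhaf3 measured 178 in the CD117neg array of mouse _952 (156 to 159).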

How the results depend on the processing

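The count of 6 higher members became 3 with a pseudocount of 1, 16 after quantile normalisation, 10 after centring, and 13 in a fit with no block and no _951 array in CD117pos. These are 5%, 26.7%, 16.7% and 21.7% of the members, against 5.48%, 13.4%, 10.8% and 11.9% of all genes. Leaving out a mouse gave 1 to 7, from fewer arrays: 1 without _948 (1.67%, against 2.47% of all genes), 7 without _951 (11.7%, against 11.7%), 3 without _952 (5%, against 3.36%) and 1 without _953 (1.67%, against 2.42%). Without the replicate block it was 9, with 1 lower (15% and 1.67%, against 8.38% and 14% of all genes). The 1 lower member became 0 with a pseudocount of 1, after quantile normalisation or after centring, and 2 with the mean of all probe sets, without probe sets of shared sequence or with both that array and the block left out. In those fits 10.3% to 16.2% of all genes were lower. Without a mouse the count of lower members was 0 to 2, against 6.7% to 16.4% of all genes. The median member difference of 0.13 was 0.29 after quantile normalisation and 0.22 after centring, where that of all genes was 0.06 and 0.08, and 0.0433 to 0.18 without a mouse. The count of members differing between mice was 0 wherever it could be fitted. Probe sets of shared sequence gave no value for 10 members when left out.

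Some small differences changed sign, for 20 of the 60 members under at least 1 alternative (10 after quantile normalisation, 8 after centring, 6 with the mean of all probe sets and 6 without shared sequence). None but Cox8c passed when turned. Among the genes given with array values, the changes after quantile normalisation and centring were Sdhaf2 (0.12 and 0.0539), Uqcrb (0.0525 and 0.0898) and Cox6a1 (0.13 and 0.0373), and after quantile normalisation also Cox4i1 (0.0195). With the mean of all probe sets they were Uqcrb (0.10), Cox6b1 (-0.0219) and Cox8c (-0.11), and without shared sequence Uqcrb (0.20), Cox6b1 (-0.0533) and Ndufab1 (-0.0849), while Ndufb2, no member, turned to -0.46 and passed. In the fit with neither the block nor that array, Cox6b1 (-0.0742), Atp5k (-0.0459) and Cox8a (-0.0467) turned, and Cox8c turned to -0.57 and passed. Leaving out mice in turn gave ranges of -0.12 to 0.094 for Sdhaf2, -0.0451 to 0.0488 for Uqcrb, -0.0849 to 0.0741 for Cox6b1, -0.0098 to 0.14 for Atp5k, -0.0056 to 0.37 for Cox8a and -0.53 to 0.33 for Cox8c. The causes of these changes were not tested. Of the 28 members with another probe set at a mean intensity of at least 50, 5 had one of the opposite sign (Atp5pb, Cox15, Cox5a, Cox6b1 and Uqcrb). Of the comparisons of named genes with an alternative, 606 kept direction and side, 57 lost the call, 4 gained it and 25 changed sign. These counts take in changed markers of the cell type lists, not all of them named above. Signals near the array median or the top of the range limit what the arrays can show.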
